A study of Fragaria vesca with 8 samples.

Results

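The genes described here are the 47 neighbours on chromosome 4 of *F. vesca* whose annotated start lies between 22.6 and 22.9 Mb, out of 34009 genes in the count tables. They were taken by position alone, in the coordinates of genome v4.0.a2. The window itself was picked because it holds the longest stretch of adjacent genes with raised counts upon FvMYB46 overexpression, a part of them also raised upon FvVND4c overexpression. The fold changes of both overexpression groups over their empty vectors were therefore used to choose this window, that is, it was selected on these values. They are given below as a description, without p-values.

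RNA had been sequenced from fruits of the white-fruited line "Yellow Wonder" in 4 groups of 2 libraries each. These were FvMYB46 overexpression and its own empty vector, and FvVND4c overexpression and its own empty vector. All fruits, the empty-vector ones included, had been injected with agrobacterium and were collected 7 days later, with at least 5 fruits for each treatment. The overexpressed genes were driven by the constitutive CaMV 35S promoter from a transiently delivered vector, so the share of fruit cells that carried a construct is unknown. Each library represents bulk tissue, in which more cells using a gene and more RNA per cell cannot be told apart. The libraries held 9765362 to 12845942 counts in genes, and 3 counts, the limit for a gene with no count, equal 0.240 to 0.327 CPM depending on the library. CPM, used for all levels below, is the count of a gene relative to the TMM-scaled total of its library.

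FvMYB46 is a MYB transcription factor whose Arabidopsis homolog is one of the switches for secondary cell wall formation. That homolog acts below NAC factors of the VND kind, to which FvVND4c belongs. In plant genomes, adjacent genes are often copies of a common ancestor that arose side by side, and adjacent genes read away from each other can share the DNA between their starts. Which of these applies to the genes below was not tested, as no sequence was used. The tables give identifiers without gene names, and 0 of the 47 identifiers matched the gene table at hand. What the genes encode is therefore not given, and neither the overexpressed genes nor markers of fruit tissue were checked.

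Of 13 genes raised upon FvMYB46 overexpression, 8 stood together as neighbours and 5 lay elsewhere in the window. The 8 form a block from FvH4_4g19000 to FvH4_4g19080, at ranks 28 to 35 of the 47 genes. The block reached from 22758408 to 22774051, a length of 15.6 kb. A gene was called raised when its log2 fold change was over 1 and the adjusted p from edgeR, over all genes tested, was under 0.05. In the block, 4 genes lay on the plus strand and 4 on the minus strand, in the order minus, plus, minus, minus, minus, plus, plus, plus. Of the 7 pairs of neighbours, 4 had the same strand, so the block was not a set of genes read in 1 direction. The same strand was found in 17 of 46 neighbour pairs of the window and in 53.8% of neighbours along chromosome 4. The spaces between the genes of the block measured 0.596 to 2.07 kb, with a median of 1.11 kb. For comparison, the median space was 1.55 kb over the 47 genes, 1.70 kb over chromosome 4 and 1.57 kb over all genes. The genes of the block were also short, with annotated spans of 483 to 1424 bases and a median of 935 bases, against 1535 bases for the 47 genes and 2297 bases for all genes. None of the 47 spans overlapped another gene, whereas 3972 of all genes did.

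The lower edge of the block depends on the fold limit. On this side it was separated by 3.69 kb from FvH4_4g18990, which was not called, with a log2 fold change of 0.59 ± 0.15 (SE) upon FvMYB46 overexpression. Both FvMYB46 overexpression libraries of FvH4_4g18990 lay above both of its empty-vector libraries, and with no fold limit it was called and the run had 9 genes. On its upper side an interval of 10.8 kb without an annotated gene came first, followed by FvH4_4g19081 with a total of 2 counts in all libraries and by FvH4_4g19090. The lowest fold change inside the block was that of FvH4_4g19010 (log2 fold change 1.92 ± 0.12). FvH4_4g19090, the first tested gene above the block, stood at 0.22 ± 0.18.

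**Figure D1:**
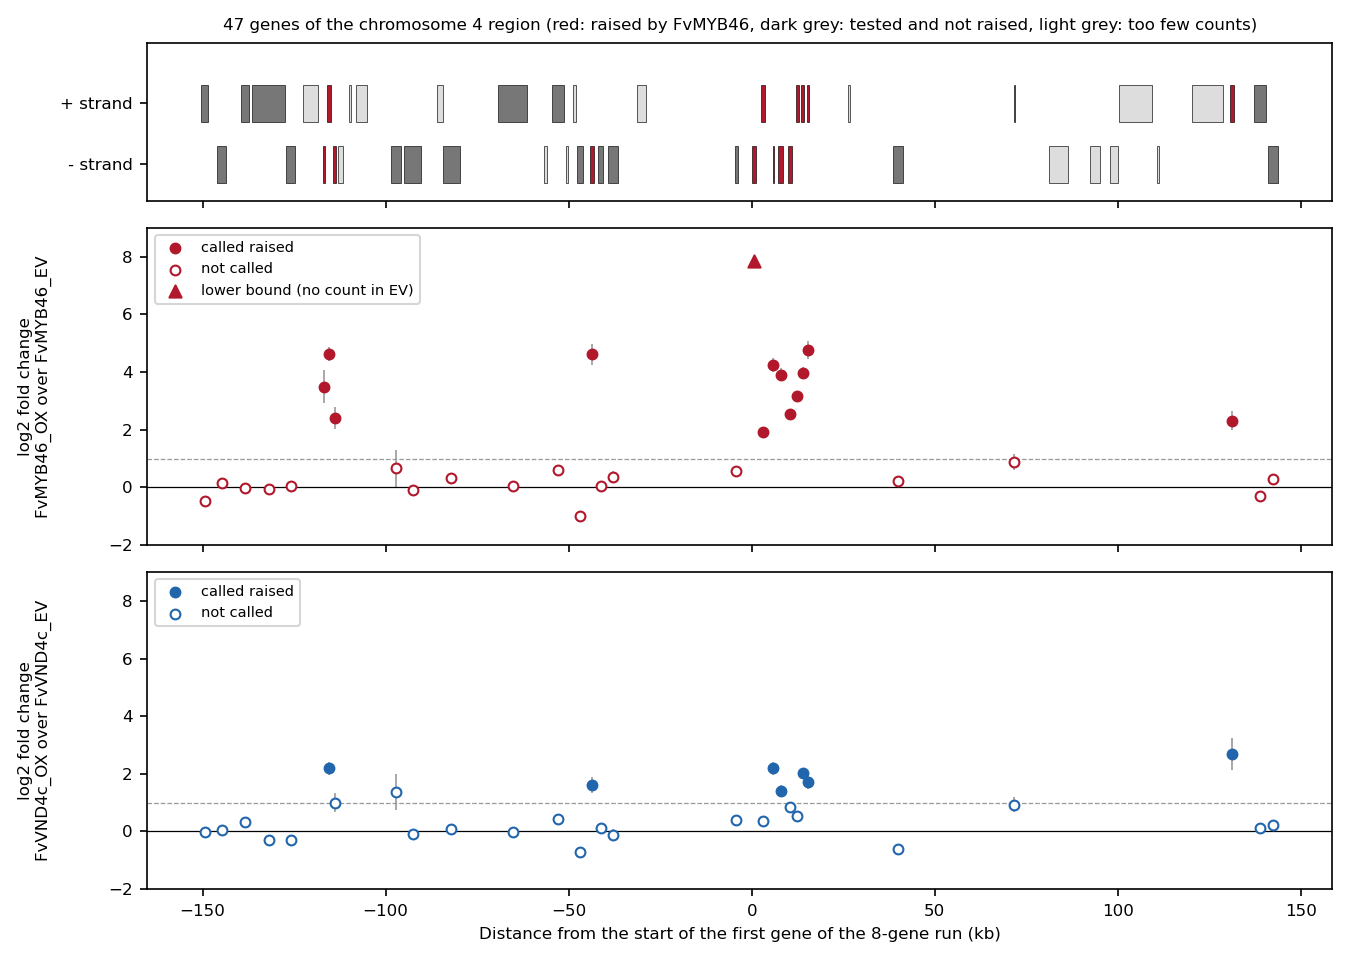
Position and fold change of the 47 genes, with distance in kb from the start of FvH4_4g19000 on the horizontal axis. Boxes in the top row are annotated spans by strand. Points give the log2 fold change over the empty vector of the same experiment with its standard error, filled where called, and the triangle is the lower bound of FvH4_4g19000. FvH4_4g19000 and FvH4_4g18830 are left out of the FvVND4c panel, as their empty vector held at most 1 count. The 8 called genes of the block lie side by side at the origin of the axis, and the tested genes next to them lie under the dashed line at 1.

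The genes of the block differed widely in how much they were used without a construct. FvH4_4g19000, on the minus strand from 22758408 to 22759459, had 27.3 and 30.2 CPM upon FvMYB46 overexpression, against no count in either library of its empty vector. It was all but silent in the other experiment too, with 0 and 0.109 CPM upon FvVND4c overexpression, against 0.0861 and 0 CPM with that empty vector, a single count in each group. This gene was thus detected above single counts upon FvMYB46 overexpression only. The mean of the FvMYB46 overexpression libraries was at least 234-fold higher than the level of 3 counts over both libraries of the empty vector, which covers counting error only.

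FvH4_4g19010, on the plus strand from 22760901 to 22762009, had 245 and 236 CPM upon FvMYB46 overexpression and 65.2 and 61.8 CPM with its empty vector. Upon FvVND4c overexpression it had 119 and 135 CPM, against 90.1 and 109 CPM with that empty vector. Among the 8 genes it combined a high level without a construct with the smallest response to FvMYB46, and the FvVND4c response, a log2 fold change of 0.35 ± 0.11, was not called. FvH4_4g19020, on the minus strand from 22764076 to 22764558, had 36.6 and 43.0 CPM upon FvMYB46 overexpression and 2.35 and 1.84 CPM with its empty vector (log2 fold change 4.24 ± 0.24). In the FvVND4c experiment it had 17.7 and 26.2 CPM upon overexpression, against 4.74 and 4.85 CPM with the empty vector (log2 fold change 2.19 ± 0.22). It was called for both constructs and has the shortest span of the block.

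FvH4_4g19040, on the minus strand from 22765564 to 22766987, had 107 and 114 CPM upon FvMYB46 overexpression, against 7.13 and 7.52 CPM with its empty vector (log2 fold change 3.92 ± 0.22). Upon FvVND4c overexpression it had 96.3 and 145 CPM, against 38.8 and 51.0 CPM with that empty vector (log2 fold change 1.42 ± 0.18). This is the gene of the block whose overexpression levels overlapped between the constructs while its empty-vector levels lay furthest apart. FvH4_4g19050, on the minus strand from 22768259 to 22769333, was the most abundant gene of the block. It had 915 and 935 CPM upon FvMYB46 overexpression and 155 and 163 CPM with its empty vector (log2 fold change 2.54 ± 0.13). Its 597 and 737 CPM upon FvVND4c overexpression, against 346 and 401 CPM with that empty vector, gave a log2 fold change of 0.84 ± 0.12, under the limit of 1. Without replicate 1 of FvVND4c overexpression this value was 1.00 and FvH4_4g19050 was called.

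The last genes of the block, FvH4_4g19060, FvH4_4g19061 and FvH4_4g19080, all lie on the plus strand. FvH4_4g19060, from 22770441 to 22771211, had 191 and 197 CPM upon FvMYB46 overexpression and 20.5 and 22.9 CPM with its empty vector (log2 fold change 3.16 ± 0.18). Upon FvVND4c overexpression it had only 53.6 and 76.1 CPM, against 39.1 and 50.8 CPM with that empty vector (log2 fold change 0.52 ± 0.17, not called). Its neighbour FvH4_4g19061, after a space of 0.763 kb, was called for both constructs. FvH4_4g19061, from 22771975 to 22772792, had 226 and 240 CPM upon FvMYB46 overexpression and 15.3 and 14.2 CPM with its empty vector (log2 fold change 3.99 ± 0.19). Upon FvVND4c overexpression it had 149 and 224 CPM, against 43.6 and 47.1 CPM with that empty vector (log2 fold change 2.04 ± 0.17). The called and uncalled genes of the FvVND4c experiment were thus interleaved in the block. FvH4_4g19080, from 22773389 to 22774051, had 56.5 and 62.0 CPM upon FvMYB46 overexpression and 1.93 and 2.40 CPM with its empty vector. Its log2 fold change of 4.76 ± 0.31 was the largest among the 7 genes of the block with counts in that empty vector. Upon FvVND4c overexpression FvH4_4g19080 had 26.0 and 44.6 CPM, against 8.35 and 12.8 CPM with the empty vector (log2 fold change 1.73 ± 0.26).

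**Figure D2:**
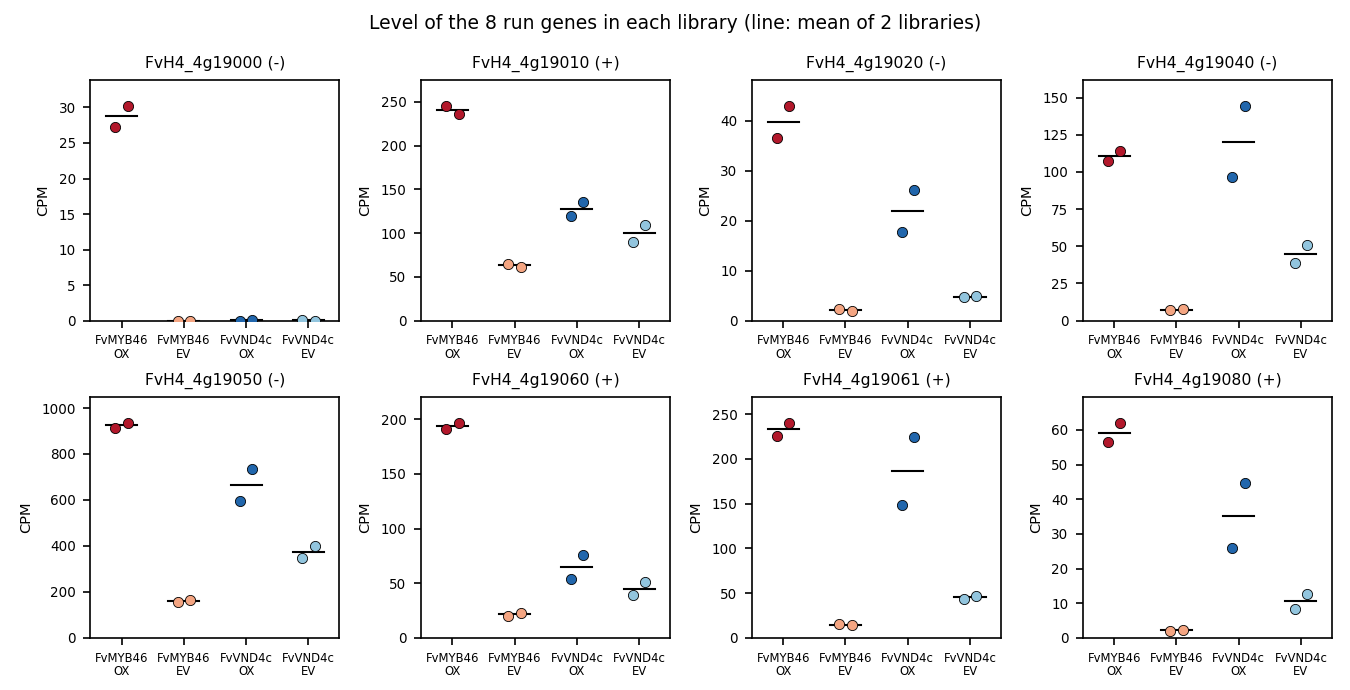
CPM of the 8 genes of the block in every library, from left to right in each panel FvMYB46 overexpression (OX), its empty vector (EV), FvVND4c overexpression and its empty vector. Points are libraries, lines are means of 2 libraries and each panel has its own linear axis from 0. The FvMYB46 overexpression libraries lie above both libraries of their empty vector in every panel, and FvH4_4g19000 is near 0 in the other 3 groups.

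Over the block, both FvMYB46 overexpression libraries lay above both libraries of their empty vector in 8 of 8 genes, where this holds for 32.9% of all genes tested. Both FvVND4c overexpression libraries lay above both libraries of their empty vector in 7 of 8 genes, all except FvH4_4g19000, where 28.2% of all genes tested do so. The median log2 fold change of the 8 genes was 3.95 with FvMYB46 and 1.13 with FvVND4c, and the medians over all genes tested were 0.00 and -0.01. The FvMYB46 median was the same with FvH4_4g19000 at its lower bound. The block was defined by its FvMYB46 calls, and the window was chosen on both sets of fold changes. These counts and medians therefore follow in part from that choice, and nothing is read from them. Replicate 2 of FvVND4c overexpression was above replicate 1 in all 8 genes, for FvH4_4g19000 by a single count, and this library also had the smallest total. Replicate 2 was also the higher in 7 genes upon FvMYB46 overexpression, in 7 with the FvVND4c empty vector and in 4 with the FvMYB46 empty vector. No share of all genes tested is set beside these replicate counts, so they are not read as a trait of the block.

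Summed over the 8 genes, the block held 1805 and 1857 CPM upon FvMYB46 overexpression, against 267 and 274 CPM with its empty vector, a ratio of means of 6.77. It held 1058 and 1388 CPM upon FvVND4c overexpression, against 571 and 676 CPM with that empty vector, a ratio of 1.96. The spread between FvVND4c overexpression libraries (SD 234 CPM) was wider than that between FvMYB46 overexpression libraries (SD 36.7 CPM), but the sums of an overexpression group and its empty vector did not overlap in either experiment. FvH4_4g19050 alone made up 50.5% of the block upon FvMYB46 overexpression and 58.8% with its empty vector, and 54.5% upon FvVND4c overexpression and 59.9% with that empty vector. The other 39 genes of the window, in contrast, summed to 1777 and 1790 CPM upon FvMYB46 overexpression, against 1506 and 1698 CPM with its empty vector. They summed to 1636 and 1786 CPM upon FvVND4c overexpression, against 1523 and 1619 CPM with that empty vector, so the groups did not overlap but lay far closer than in the block. The block was defined as genes called raised by FvMYB46, so this contrast follows from the split and is a description only. Abundant genes weigh most in the sum of the 39, such as FvH4_4g18990 with means of 612 CPM upon FvMYB46 overexpression and 408 CPM with its empty vector.

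**Figure D3:**
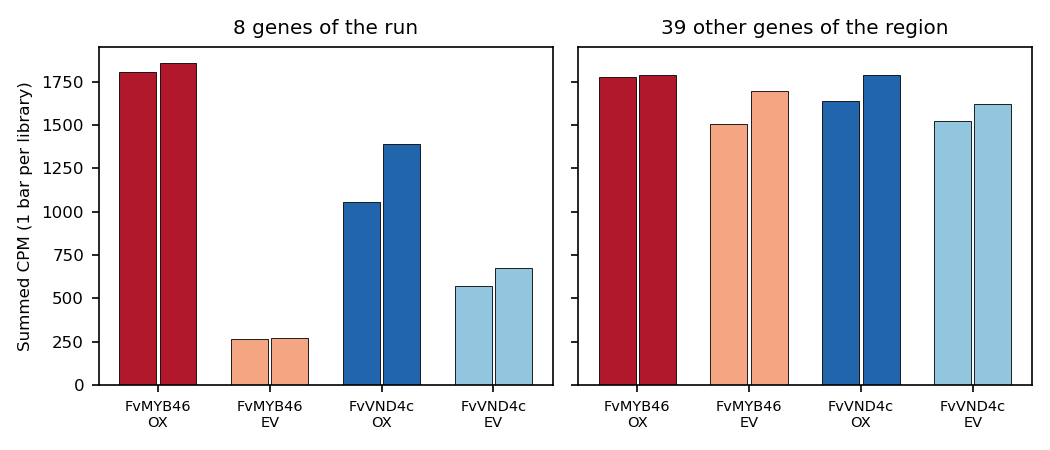
Summed CPM of the 8 genes of the block (left) and of the other 39 genes of the window (right), with 1 bar per library in 4 groups (OX, overexpression; EV, empty vector) on a linear axis from 0. The block ranges from 267 to 1857 CPM, whereas the other genes range from 1506 to 1790 CPM. The block was defined by its FvMYB46 calls, so this contrast follows from the split.

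Per kilobase of annotated span, which includes introns, FvH4_4g19050 also ranked first in all 4 groups, with a mean level of 860 CPM per kb upon FvMYB46 overexpression and 148 with its empty vector, and 620 upon FvVND4c overexpression and 347 with that empty vector. FvH4_4g19000 ranked last in all 4 groups. It reached 27.3 CPM per kb upon FvMYB46 overexpression, below the other 7 genes, of which FvH4_4g19040 was the lowest with 77.8 CPM per kb. Between these 7 genes, the highest level per kb was 11.1 times the lowest upon FvMYB46 overexpression and 45.3 times the lowest with its empty vector. The corresponding values were 13.6 upon FvVND4c overexpression and 35.0 with that empty vector. The levels of these 7 genes were thus closer to each other with a construct than without, FvH4_4g19000 being left out. These levels also enter the fold changes that chose the window, so this is a description. Whether reads were shared between similar genes of the block was not tested.

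The empty-vector groups themselves differed over the block, and this bears on both sets of fold changes. All 8 genes had a lower mean in the FvMYB46 empty vector than in the FvVND4c empty vector, for FvH4_4g19000 by a single count, with a median log2 difference of -1.43. FvH4_4g19040 differed most, by -2.62 ± 0.22, and FvH4_4g19010 least among the 7 detected genes, by -0.65 ± 0.11. By the same thresholds, 7 of the 31 tested genes of the window were lower in the FvMYB46 empty vector, 6 of them in the block, where 1.62% of all genes tested were. None of the 31 was called higher by edgeR or DESeq2, where 0.618% of all genes tested were by edgeR, and 2 were higher by the same fold at an unadjusted p under 0.05 from edgeR. These libraries also enter the fold changes that chose the window, so the difference is no independent measure. Without replicate 2 of the FvVND4c empty vector, 4 genes were called, namely FvH4_4g19040, FvH4_4g19050, FvH4_4g19061 and FvH4_4g19080.

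With the empty vectors exchanged between the experiments, the order of the constructs turned round in the median, but not in every gene of the block. The median log2 fold change of the 8 genes was then 2.23 in place of 3.95 for FvMYB46 and 2.92 in place of 1.13 for FvVND4c. All 8 genes were still called for FvMYB46, and 12 of the 31 tested genes of the window in all, where 8.58% of all genes tested were. For FvVND4c, 7 genes of the block were called in place of 4, all except FvH4_4g19000, and again 12 of the 31 in all, where 5.3% of all genes tested were. An exchanged value also contains whatever else set the experiments apart. Most affected was FvH4_4g19040, at 1.30 ± 0.18 for FvMYB46 and 4.03 ± 0.22 for FvVND4c. The FvMYB46 value stayed above the FvVND4c value in FvH4_4g19010 (1.27 and 1.00) and FvH4_4g19060 (2.11 and 1.58). It also did so in FvH4_4g19000, where the lower groups hold single counts at most. In the remaining genes of the block it fell below.

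**Figure D4:**
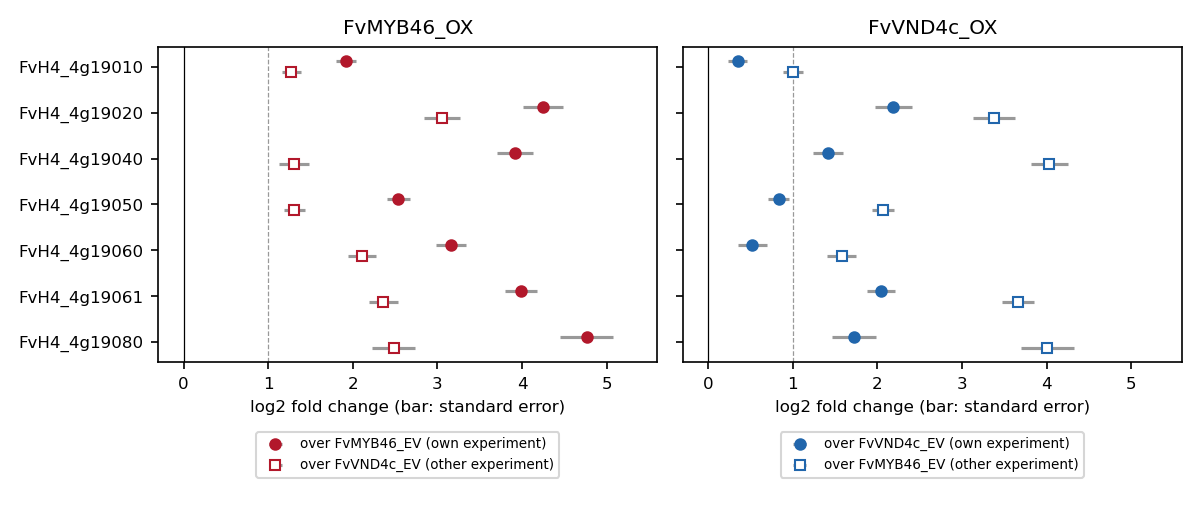
Log2 fold change with its standard error for the 7 genes of the block with counts in both empty vectors, for FvMYB46 overexpression (left) and FvVND4c overexpression (right). Circles use the empty vector of the same experiment and squares that of the other experiment, and the dashed line marks 1. FvMYB46 values are smaller and FvVND4c values larger with the empty vector of the other experiment, for example 3.92 and 1.30 for FvMYB46 and 1.42 and 4.03 for FvVND4c in FvH4_4g19040.

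Compared directly with each other, a comparison added after the data were seen, the overexpression groups were called different in 2 of the 8 genes. FvH4_4g19060 was higher upon FvMYB46 than upon FvVND4c overexpression by a log2 value of 1.58 ± 0.16. FvH4_4g19000 was higher at a ratio of pooled counts of 591, with a 95% exact binomial interval of 106 to 23380 that covers counting error only. The other 6 genes were not called, with log2 differences of -0.12 ± 0.17 for FvH4_4g19040 to 0.92 ± 0.11 for FvH4_4g19010. Of these, FvH4_4g19010, FvH4_4g19020, FvH4_4g19050 and FvH4_4g19080 passed the adjusted p but not the fold limit. FvH4_4g19040 and FvH4_4g19061 passed neither. In the window, 5 of 31 tested genes were called higher upon FvMYB46 overexpression, where 6.33% of all genes tested were. None was called lower by edgeR, by edgeR at an unadjusted p under 0.05 with the same fold or by DESeq2, where 3.19% of all genes tested were by edgeR. In 7 of the 8 genes the group means stood in the order FvMYB46 overexpression, FvVND4c overexpression, FvVND4c empty vector and FvMYB46 empty vector, the exception being FvH4_4g19040. For FvH4_4g19000 this order rests on single counts in the 3 lower groups. The same order was found in 9 of the 31 tested genes of the window and in 6.39% of all genes tested. The response itself, that is, each overexpression group over its own empty vector, was larger for FvMYB46 than for FvVND4c in all 8 genes of the block and in 10 of the 31 tested genes, where 5.86% of all genes tested were called. None was called smaller, where 3.77% of all genes tested were. These differences again contain the empty vectors.

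In the whole window, 31 of the 47 genes had enough counts to be tested (66%), against 55.2% of all genes. Of these 31, 13 were raised upon FvMYB46 overexpression, where 10.1% of all genes tested were, and 7 upon FvVND4c overexpression, where 4.17% were. All 7 were among the 13, where 2.18% of all genes tested were raised by both constructs. None was called lowered by FvMYB46, where 3.46% of all genes tested were, or by FvVND4c, where 1.11% were. With edgeR at an unadjusted p under 0.05 and the same fold the lowered genes were 0 for either construct, and DESeq2 called 1 gene for FvMYB46 and 0 for FvVND4c. The gene lowered in DESeq2 was FvH4_4g18950, with 12.5 and 12.7 CPM upon FvMYB46 overexpression and 28.7 and 21.6 CPM with its empty vector, and a log2 fold change of -0.99 ± 0.16 from edgeR. As the window was picked for its raised genes, nothing is read from these shares.

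Away from the block, 5 genes were raised by FvMYB46 in 3 places. The first was a group of 3 neighbours within 3.54 kb, FvH4_4g18830, FvH4_4g18850 and FvH4_4g18851, which ended 114 kb before the block with 18 genes in between. Their strands were minus, plus and minus, and spaces of only 0.469 and 0.520 kb separated them. The middle gene, FvH4_4g18850, from 22642317 to 22643514, had 50.7 and 55.6 CPM upon FvMYB46 overexpression and 1.76 and 2.48 CPM with its empty vector (log2 fold change 4.64 ± 0.25). It had 17.5 and 24.3 CPM upon FvVND4c overexpression, against 3.62 and 5.50 CPM with that empty vector (log2 fold change 2.19 ± 0.23). FvH4_4g18850 was thus called for both constructs, with groups that did not overlap in either experiment.

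FvH4_4g18830, from 22641365 to 22641847, was at the edge of detection, with 16 and 19 counts upon FvMYB46 overexpression and 1 and 2 counts with its empty vector. The ratio of the pooled counts was 12.1, with a 95% exact binomial interval of 3.82 to 61.6 that covers counting error only. It had 3 and 3 counts upon FvVND4c overexpression, against none with that empty vector, and was not called there. FvH4_4g18851, from 22644035 to 22644901, had 9.37 and 8.41 CPM upon FvMYB46 overexpression and 1.17 and 2.16 CPM with its empty vector (log2 fold change 2.40 ± 0.38). It had 8.07 and 11.6 CPM upon FvVND4c overexpression, against 3.19 and 6.57 CPM with that empty vector (log2 fold change 0.99 ± 0.33), and was not called. Its FvVND4c value rests on the empty-vector libraries, as it was 0.57 and not called without replicate 1 of that empty vector, and 1.62 and called without replicate 2. With the empty vectors exchanged, its FvMYB46 value was 0.86 and was not called.

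FvH4_4g18951, a gene on the minus strand from 22714193 to 22715298, stood alone among genes that were not raised. It had 10.5 and 12.1 CPM upon FvMYB46 overexpression and 0.419 and 0.480 CPM with its empty vector (log2 fold change 4.62 ± 0.36). It had 5.70 and 9.27 CPM upon FvVND4c overexpression, against 2.24 and 2.63 CPM with that empty vector (log2 fold change 1.60 ± 0.28). Like most of the block, it was lower in the FvMYB46 than in the FvVND4c empty vector, with a log2 difference of -2.41 ± 0.43. The FvVND4c call of FvH4_4g18951 was lost without replicate 1 of that empty vector, where the log2 fold change was 1.50. FvH4_4g19170, on the plus strand from 22888923 to 22890043, had 6.47 and 4.16 CPM upon FvMYB46 overexpression and 0.922 and 1.20 CPM with its empty vector (log2 fold change 2.31 ± 0.33). It had 1.40 and 1.42 CPM upon FvVND4c overexpression, against 0.258 and 0.164 CPM with that empty vector (log2 fold change 2.68 ± 0.56). Unlike the block, FvH4_4g19170 had more CPM in the FvMYB46 empty vector than in the FvVND4c empty vector, a difference that was not called, and with the empty vectors exchanged its FvVND4c value was 0.40 and was not called. Its FvVND4c call rests on few counts and was lost without replicate 2 of FvVND4c overexpression (2.67) and without replicate 1 or 2 of its empty vector (3.02 or 2.40).

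**Figure D5:**
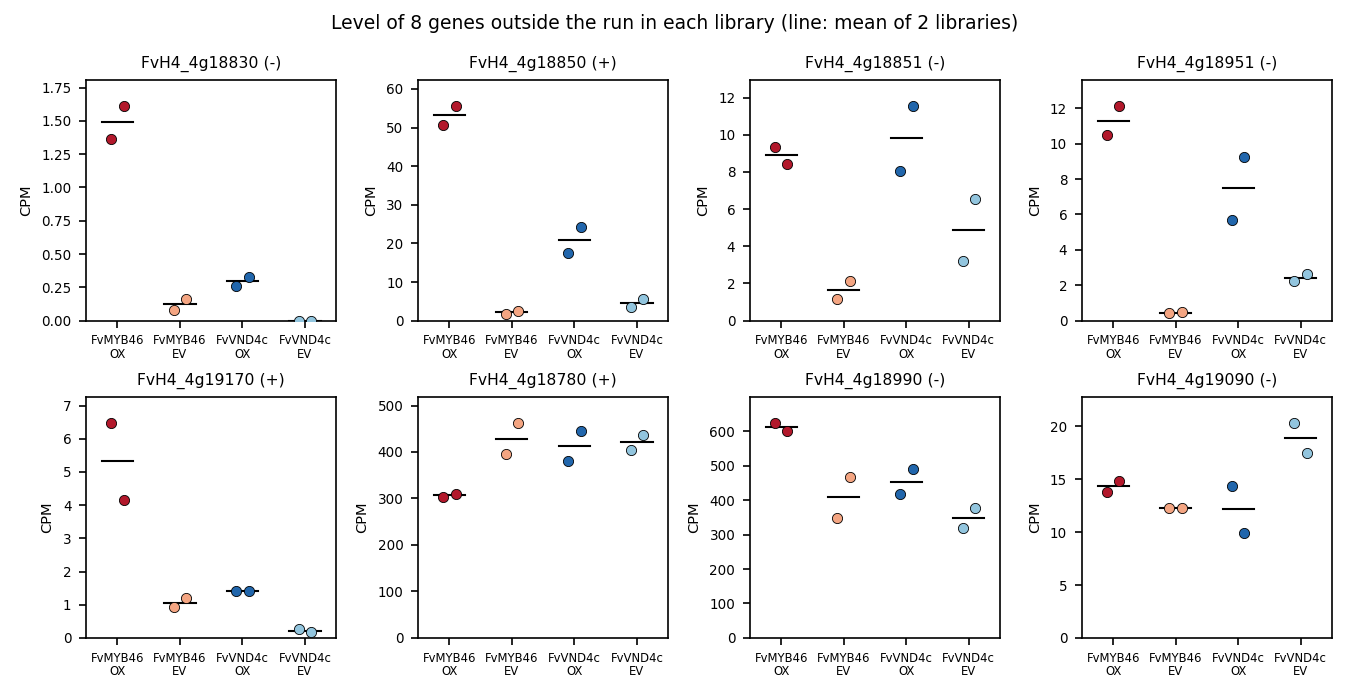
CPM in every library for the 5 genes raised by FvMYB46 outside the block, followed by FvH4_4g18780, FvH4_4g18990 and FvH4_4g19090, which were not called. Groups run from FvMYB46 overexpression (OX) and its empty vector (EV) to FvVND4c overexpression and its empty vector, points are libraries, lines are means and each axis is linear from 0. FvH4_4g18850 has 50.7 and 55.6 CPM upon FvMYB46 overexpression, while FvH4_4g18780 and FvH4_4g18990 range between 304 and 624 CPM over all 8 libraries.

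The remaining 18 tested genes were called for neither construct. Their mean levels over the 8 libraries ranged between 0.762 and 455 CPM, and 12 of them had log2 fold changes of less than 0.5 in size with both constructs. Their log2 fold changes ranged between -0.99 and 0.88 with FvMYB46 and between -0.70 and 1.37 with FvVND4c, the highest being that of FvH4_4g18870, which had a mean level of only 0.762 CPM. The 3 most abundant genes of the window were FvH4_4g19050 of the block, FvH4_4g18990 just below it and FvH4_4g18780 at the lower end of the window. FvH4_4g18990, from 22753753 to 22754720, had 624 and 600 CPM upon FvMYB46 overexpression and 348 and 468 CPM with its empty vector. It had 419 and 489 CPM upon FvVND4c overexpression, against 318 and 378 CPM with that empty vector. FvH4_4g18990 was thus among the most abundant genes next to the block, and was called for neither construct. FvH4_4g18780, from 22608044 to 22609917, had 304 and 309 CPM upon FvMYB46 overexpression and 395 and 462 CPM with its empty vector, a log2 fold change of -0.48 ± 0.12. It had 380 and 446 CPM upon FvVND4c overexpression, against 405 and 437 CPM with that empty vector, where the groups overlapped.

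The other 16 genes of the window had too few counts to be tested. Of these, 5 had no count in any library, among them FvH4_4g18971, the gene before FvH4_4g18990, and none had more than 12 counts in a library or more than 42 in all. Of the 27 genes before the block 9 were untested, and of the 12 genes after it 7.

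The span of FvH4_4g19020 in the block, 483 bases, was shared exactly by FvH4_4g18830 and by FvH4_4g19120 on the far side of the block, and 14 of all 34009 genes have this span. FvH4_4g19120 had 3.49 and 3.31 CPM upon FvMYB46 overexpression and 1.84 and 1.84 CPM with its empty vector, and averaged 6.21 ± 1.71 CPM upon FvVND4c overexpression, against 3.24 ± 0.287 CPM with that empty vector (SD, n = 2 each). Its log2 fold changes of 0.88 ± 0.29 and 0.92 ± 0.26 lay under the limit of 1, so it was called for neither construct. Whether an equal span goes with the response was not tested.

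At the borders of the window, no gene on either side was called. The genes just inside, FvH4_4g18780 and FvH4_4g19190, passed the adjusted p for FvMYB46 but not the fold limit, with log2 fold changes of -0.48 and 0.30. FvH4_4g18770, just outside the lower border, averaged 104 CPM upon FvMYB46 overexpression and 117 CPM with its empty vector, and FvH4_4g18780 is the first inside it. At the upper border, FvH4_4g19190 averaged 100.1 CPM upon FvMYB46 overexpression and 81.2 CPM with its empty vector, and the next gene, FvH4_4g19210, had no count. Thus no run of raised genes was cut by a border of the window, and the block lies well inside both borders.

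Along all chromosomes, the 1889 genes raised by FvMYB46 fell into 1677 runs of adjacent genes, of which 1498 were single genes. The block of 8 was the longest, followed by 1 run of 6 on chromosome 2 and 1 run of 4 on chromosome 1. The 783 genes raised by FvVND4c fell into 710 runs, and the longest of these, of 7 and 5 genes, both lay on chromosome 5. On chromosome 4 the FvVND4c calls inside the block formed runs of at most 2 genes, since FvH4_4g19050 and FvH4_4g19060 were not called. The window was chosen for the longest FvMYB46 run, so its rank is no result.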

How the data were processed

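Per the methods and the submitters' processing notes, the authors trimmed reads with fastp 0.20.1, mapped them with HISAT2 2.2.1 to *F. vesca* genome v4.0.a2, removed PCR duplicates with SAMtools 1.9 and counted reads per gene with featureCounts 2.0.3. The strand setting and the handling of reads with several matches are not given in the sources used here. The deposited count tables hold whole numbers for 34009 genes. The deposited TPM tables, made by the authors, hold 17698 genes, 29 of the 47 among them, and were used only in an alternative test. They equal counts over the annotated span. The labels list 2 libraries per group, fewer than the methods state, and leave unsaid whether they came from separate fruits, so p-values may measure technical spread only.

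Counts were tested with edgeR 4.0.16 in R 4.3.3 (filterByExpr, TMM, quasi-likelihood test) in 1 fit of 8 libraries and 4 groups, over 18766 genes, with Benjamini-Hochberg adjustment. The standard error is the log2 fold change over the square root of F. The scripts were tested on simulated data. Alternatives used DESeq2 1.42.0, limma 3.58.1, other scalings, filters, thresholds and controls, a replicate block and leaving out each library. Named are all genes of the block, the 2 genes on either side, all other called genes and the 3 most abundant ones. FvH4_4g18770, FvH4_4g18870, FvH4_4g18950, FvH4_4g19120, FvH4_4g19190 and FvH4_4g19210 were added after their values were seen. The window, the rules and the tests were chosen with earlier results of these data known. No sequence of these genes was used.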

Additional observations from a re-analysis of the deposited data

Results flagged for a closer look

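In 10 genes of the window the response to FvMYB46 was larger than that to FvVND4c by edgeR's test of the difference itself, where 5.86% of all genes tested were called. None was called smaller by edgeR or DESeq2, or by edgeR at an unadjusted p under 0.05 with the same fold, where edgeR called 3.77% of all genes tested. The difference is built from the fold changes that chose the window, so it is a description. On the log2 scale it was 2.45 ± 0.36 (SE) for FvH4_4g18850, 3.02 ± 0.49 for FvH4_4g18951, 1.57 ± 0.16 for FvH4_4g19010, 2.06 ± 0.33 for FvH4_4g19020 and 2.50 ± 0.28 for FvH4_4g19040. It was 1.70 ± 0.18 for FvH4_4g19050, 2.64 ± 0.24 for FvH4_4g19060, 1.95 ± 0.24 for FvH4_4g19061 and 3.04 ± 0.42 for FvH4_4g19080. The value of 11.20 for FvH4_4g19000 involves 3 groups with at most 1 count and depends on the prior count. All 10 genes had a lower mean in the FvMYB46 than in the FvVND4c empty vector (FvH4_4g19000 by a single count). By the adjusted p and the fold limit 7 of them were called lower there, where 1.62% of all genes tested were. A lower FvMYB46 empty vector enlarges the difference by which the 10 genes were picked, so nothing is read from these counts. Between the overexpression groups, 3 (FvH4_4g18850, FvH4_4g19000 and FvH4_4g19060) were called. In the fit, each difference is the log2 difference between the overexpression groups minus that between the empty vectors, FvMYB46 over FvVND4c in both. These parts were -0.12 and -2.62 for FvH4_4g19040 and 0.32 and -1.62 for FvH4_4g19061, where the empty vectors gave most or all of it. They were 1.58 and -1.05 for FvH4_4g19060 and 1.35 and -1.10 for FvH4_4g18850, where the overexpression groups gave the larger part.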

How the results depend on the processing

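The 8 genes of the block were called for FvMYB46 under every alternative, left-out libraries included, but the requirement of 10 counts in every library, which removes FvH4_4g19000 and leaves 7. With no fold threshold the run was 9 genes, FvH4_4g18990 being added. Under the same alternatives no called fold change reversed. RLE scaling moved the median of all genes by less than 0.1. The lowered genes for FvMYB46, 0 by the main test, were 1 with DESeq2 on all 8 libraries or on 4, with RLE scaling, with no filter, with edgeR on 4 libraries, against the other empty vector and against all 4 empty-vector libraries, and 2 with no fold threshold. Leaving out a library gave 0 to 1. For FvVND4c, 1 gene was lowered with no fold threshold. The 7 genes raised by FvVND4c became 12 against the other empty vector and 11 against all 4 empty-vector libraries. The 7 genes called between the empty vectors became 11 at an unadjusted p, and 4 to 7 when a library was left out. The 5 called between the overexpression groups became 11 with no fold threshold and 2 where every library needed 10 counts. With the replicate number as a block in the fit, 13 genes were raised by FvMYB46 and 8 by FvVND4c, FvH4_4g18851 being added, and the 8 neighbours kept their calls; 10 genes were called between the empty vectors. Deviations of same-numbered libraries within an experiment correlated at 0.20 (FvMYB46) and 0.28 (FvVND4c) across genes, but the labels do not pair them. No correlation between the experiments is set beside these values, so they do not show a pairing. Depth limits FvH4_4g18830, FvH4_4g19170 and FvH4_4g19000.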
